A study of Homo sapiens with 22 samples.

Results

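The 37 genes described here carry glucose through glycolysis or answer to low oxygen. They were chosen by name: every row of the deposited CPM table (reads of a gene scaled to its library total) whose Ensembl identifier has one of the 37 symbols as its current or older name was taken. The symbols and their roles were set with earlier results of these data known. All 37 were among the 17165 genes of the table, and all 37 entered the test, which was run on the 15485 genes that reached 1 CPM in 2 or more libraries. By role they are 2 glucose transporters, 17 glycolytic enzymes, 3 PFKFB enzymes, 3 genes of lactate transport and pyruvate use, 4 hypoxia-inducible factors and prolyl hydroxylases, and 8 hypoxia targets with no step in glycolysis.

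Glycolysis splits glucose into pyruvate, which lactate dehydrogenase can turn into lactate for export. HIF-1 and HIF-2 are oxygen-sensitive transcription factors whose alpha subunits are marked for destruction by prolyl hydroxylases while oxygen is present. HIF-1 is known to raise most glycolytic enzymes as well as genes outside glycolysis such as CA9 and ADM, and growth signals downstream of receptor kinases raise many of the same enzymes. In lung cancer cells driven by mutant EGFR, glucose uptake and lactate output are known to depend on that receptor.

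PC9 is an established human lung adenocarcinoma line that grows on signals from a mutant EGFR. Gefitinib blocks that kinase reversibly, and WZ4002 binds it covalently. Vehicle, gefitinib or WZ4002 was given to parental cells. PC9-GR2 and PC9-GR3, both derived from PC9, were given vehicle or WZ4002, while gefitinib-tolerant cells received vehicle or gefitinib, and WZ4002-tolerant cells received vehicle or WZ4002. That makes 11 groups of 2 libraries. All exposures were of 24 h, and the labels state 1 mM for both drugs, although such inhibitors are usually given to cells in micromolar amounts, so the unit may be wrong. The labels do not say how the derivatives and tolerant cells were made, whether each derivative is 1 clone, or how long tolerant cells had been without drug before vehicle. They also do not say that the libraries of a pair came from separate cultures, so p-values here reflect library-to-library spread that could be purely technical.

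The libraries held 23.6 to 50.4 M reads by the step between CPM values. The drugs acted in all 5 populations on DUSP6, a phosphatase gene switched on by ERK signalling: it stood at 110.3 and 103 CPM in parental vehicle libraries and at 0.34 and 0.35 CPM under gefitinib, and over all groups at 17.7 to 276 CPM in vehicle and 0.08 to 4.18 CPM in drug libraries. The 6 epithelial markers EPCAM, CDH1, KRT8, KRT18, KRT19 and EGFR were each above 100 CPM in all 22 libraries. Of markers of other cells, all 4 leukocyte genes (PTPRC, CD3E, CD68 and LYZ), the endothelial PECAM1 and the fibroblast DCN were not among the listed genes. All listed genes have a value above 0 in every library, and why a gene is not listed is not known here. The endothelial markers VWF (0.14 to 2.86 CPM) and CDH5 (1.91 to 37.2 CPM) and the fibroblast markers COL1A1 (5.27 to 18.4 CPM), COL1A2 (0.02 to 0.16 CPM) and PDGFRB (0.02 to 1.29 CPM) were listed. CDH5 moved with drug, from 14.6 and 14.9 to 3.47 and 3.24 CPM under gefitinib in parental cells and from 8.34 and 11.8 to 32.6 and 26.8 CPM in gefitinib-tolerant cells, and VWF went from 0.25 and 0.35 to 1.61 and 2.86 CPM in the parental cells. The part of these markers in the results was not tested. Some pairs were far apart, and this touches many results below: vehicle library 1 of the parental cells and of PC9-GR3 had the higher mean level of the 17 enzymes, and the PC9-GR3 vehicle pair had the highest chi-square per gene of the 11 pairs (95.2, against 3.85 in the PC9-GR2 vehicle pair). The PC9-GR2 vehicle libraries stood at positions 20 and 22 of the 22 columns, and the PC9-GR2 WZ4002 libraries at 3 and 12. Within PC9-GR2, drug and place in the column order cannot be told apart. Nor can population and place where PC9-GR2 vehicle cells are set against parental or PC9-GR3 vehicle cells.

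The promoters of 5 members are printed with the core letters that HIF is known to bind, because these members are among those the results turn on. CA9 and ADM are hypoxia targets outside glycolysis that went different ways under drug. PGK1, LDHA and PDK1 fell with the glycolytic genes in parental cells. Each line gives the 250 bases before a RefSeq start in GRCh38.p14 on the plus strand. Where a member had several starts, the window with the most matches was printed. Capitals mark ACGTG or GCGTG on either strand, so CACGT and CACGC in the printed letters are matches read on the other strand. The coordinates are chr9:35673678-35673927 for CA9, chr11:10304823-10305072 for ADM, chrX:78103998-78104247 for PGK1, chr11:18394313-18394562 for LDHA and chr2:172555840-172556089 for PDK1.
CA9: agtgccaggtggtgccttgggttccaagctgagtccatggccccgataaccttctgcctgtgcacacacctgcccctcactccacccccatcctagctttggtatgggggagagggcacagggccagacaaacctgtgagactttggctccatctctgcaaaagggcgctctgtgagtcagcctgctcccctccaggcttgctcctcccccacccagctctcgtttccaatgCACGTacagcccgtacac
ADM: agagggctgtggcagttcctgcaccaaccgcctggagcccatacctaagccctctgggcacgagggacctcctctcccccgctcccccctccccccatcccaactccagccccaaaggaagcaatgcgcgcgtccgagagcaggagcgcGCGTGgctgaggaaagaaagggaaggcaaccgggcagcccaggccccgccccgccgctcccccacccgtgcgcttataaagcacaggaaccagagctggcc
PGK1: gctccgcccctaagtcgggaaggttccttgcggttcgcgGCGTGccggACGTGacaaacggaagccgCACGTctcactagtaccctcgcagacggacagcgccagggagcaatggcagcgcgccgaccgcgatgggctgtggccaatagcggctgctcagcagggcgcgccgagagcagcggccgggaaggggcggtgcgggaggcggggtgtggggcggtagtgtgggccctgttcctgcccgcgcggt
LDHA: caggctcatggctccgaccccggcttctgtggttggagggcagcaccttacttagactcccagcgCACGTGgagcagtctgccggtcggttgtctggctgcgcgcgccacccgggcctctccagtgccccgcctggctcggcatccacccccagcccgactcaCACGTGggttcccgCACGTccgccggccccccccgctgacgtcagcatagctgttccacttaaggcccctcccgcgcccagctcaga
PDK1: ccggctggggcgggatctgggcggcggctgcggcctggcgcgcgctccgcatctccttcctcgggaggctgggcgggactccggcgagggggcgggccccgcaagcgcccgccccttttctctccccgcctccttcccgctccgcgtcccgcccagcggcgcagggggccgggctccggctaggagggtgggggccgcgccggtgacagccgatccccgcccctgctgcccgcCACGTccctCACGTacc
In these windows, picked for the most matches, CA9 and ADM had 1 match each, PDK1 had 2, PGK1 had 3 and LDHA had 5. CACGTG counts once on each strand. Entries were found for 31 of the 37 members, and 26 of these 31 (83.9%) held at least 1 match in at least 1 of their windows, against 47.4% of 27305 genes. Members had more windows per gene, so the share by window is the fairer one: 58.6% of 58 windows of members and 43.2% of all 35116 windows held a match. For ACGTG alone it was 37.9% against 18.5% of windows, and for GCGTG alone 31% against 32.2%. A match is only a run of letters, and no binding was measured. No entry was found for SLC2A3, PFKFB2, SLC16A1, VEGFA, NDRG1 and BNIP3L.

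Under drug, glycolytic enzymes fell in parental and PC9-GR2 cells. The hypoxia targets outside glycolysis that passed were all lower in parental cells. In the other populations they split, with VEGFA lower and ADM higher. Changes are differences of log2(CPM + 1), which understates the change of low genes, ± SE from limma, and a gene passed where its adjusted p over all tested genes was under 0.05. In parental cells 19 of 37 members passed under gefitinib (51.4%; background 45.3% of all genes), 18 of them lower (48.6%; background 21.8%) and 1 higher (background 23.5%). Under WZ4002, 23 passed (62.2%; background 47.5%), 22 lower (59.5%; background 22.3%) and 1 higher (background 25.1%). In PC9-GR2 cells 26 passed (70.3%; background 55.7%), 20 lower (54.1%; background 28.3%) and 6 higher (background 27.4%). The share of members called lower was above that of all genes in each of these 3 responses. Since the members and roles were chosen with earlier results known, such shares describe the lists and carry no test.

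In the remaining responses fewer members passed. In PC9-GR3 cells 7 of 37 members passed under WZ4002 (18.9%; background 22%), a share near that of all genes, with 5 lower (background 9.87%) and 2 higher (background 12.1%). In gefitinib-tolerant cells 13 passed under gefitinib (35.1%; background 28.7%), 10 of them lower (background 13.6%) and 3 higher (background 15.2%). In WZ4002-tolerant cells 16 passed under WZ4002 (43.2%; background 32.6%), 11 of them lower (background 15.6%) and 5 higher (background 17%). ANKRD37 is among the higher ones in both and entered the test only through drug-treated libraries. Without it 12 of 36 (33.3%) and 15 of 36 (41.7%) passed, 2 and 4 of them higher. HK1, ENO2, PDK1 and HIF1A were lower in all 6 responses, which makes 4 of 37 members against 4.4% of all genes, and 0 members were higher in all 6 (background 5.11%). Both parental responses were taken against the same vehicle libraries and are set side by side here. The median change of all tested genes lay between 0.01 and 0.04 in the 6 responses.

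With 2 libraries a group, many calls rested on a single library. In fits that left out 1 library of the contrast, where the lone library is assumed to vary like the other groups, 9 of 19 calls held in all 4 fits for gefitinib and 14 of 23 for WZ4002 in parental cells, 19 of 26 in PC9-GR2, 1 of 7 in PC9-GR3, 2 of 13 in gefitinib-tolerant and 2 of 16 in WZ4002-tolerant cells. Without gefitinib-tolerant vehicle library 1 or gefitinib library 2, 2 members (5.41%) passed in place of 13, where 6.36% and 6.3% of all genes passed, and without vehicle library 2 it was 8 (21.6%; all genes 25.4%). Without WZ4002-tolerant vehicle library 1, 2 passed in place of 16 (5.41%; all genes 9.05%), against 5 and 8 without WZ4002 library 1 or 2 (13.5% and 21.6%; all genes 19.4% and 22.1%). In PC9-GR3, 4 passed in place of 7 without vehicle library 1 or WZ4002 library 1 (10.8%; all genes 12.8% and 16.3%), and 3 without WZ4002 library 2 (8.11%; all genes 11.2%). In these fits the share of all genes fell as well, and that of the members was below it. In the other left-out fits of these responses the share of the members was above that of all genes. Those left out gefitinib library 1 of gefitinib-tolerant cells, vehicle library 2 of WZ4002-tolerant cells or vehicle library 2 of PC9-GR3. HK1 alone passed in all fits of all 6 responses.

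**Figure D1:**
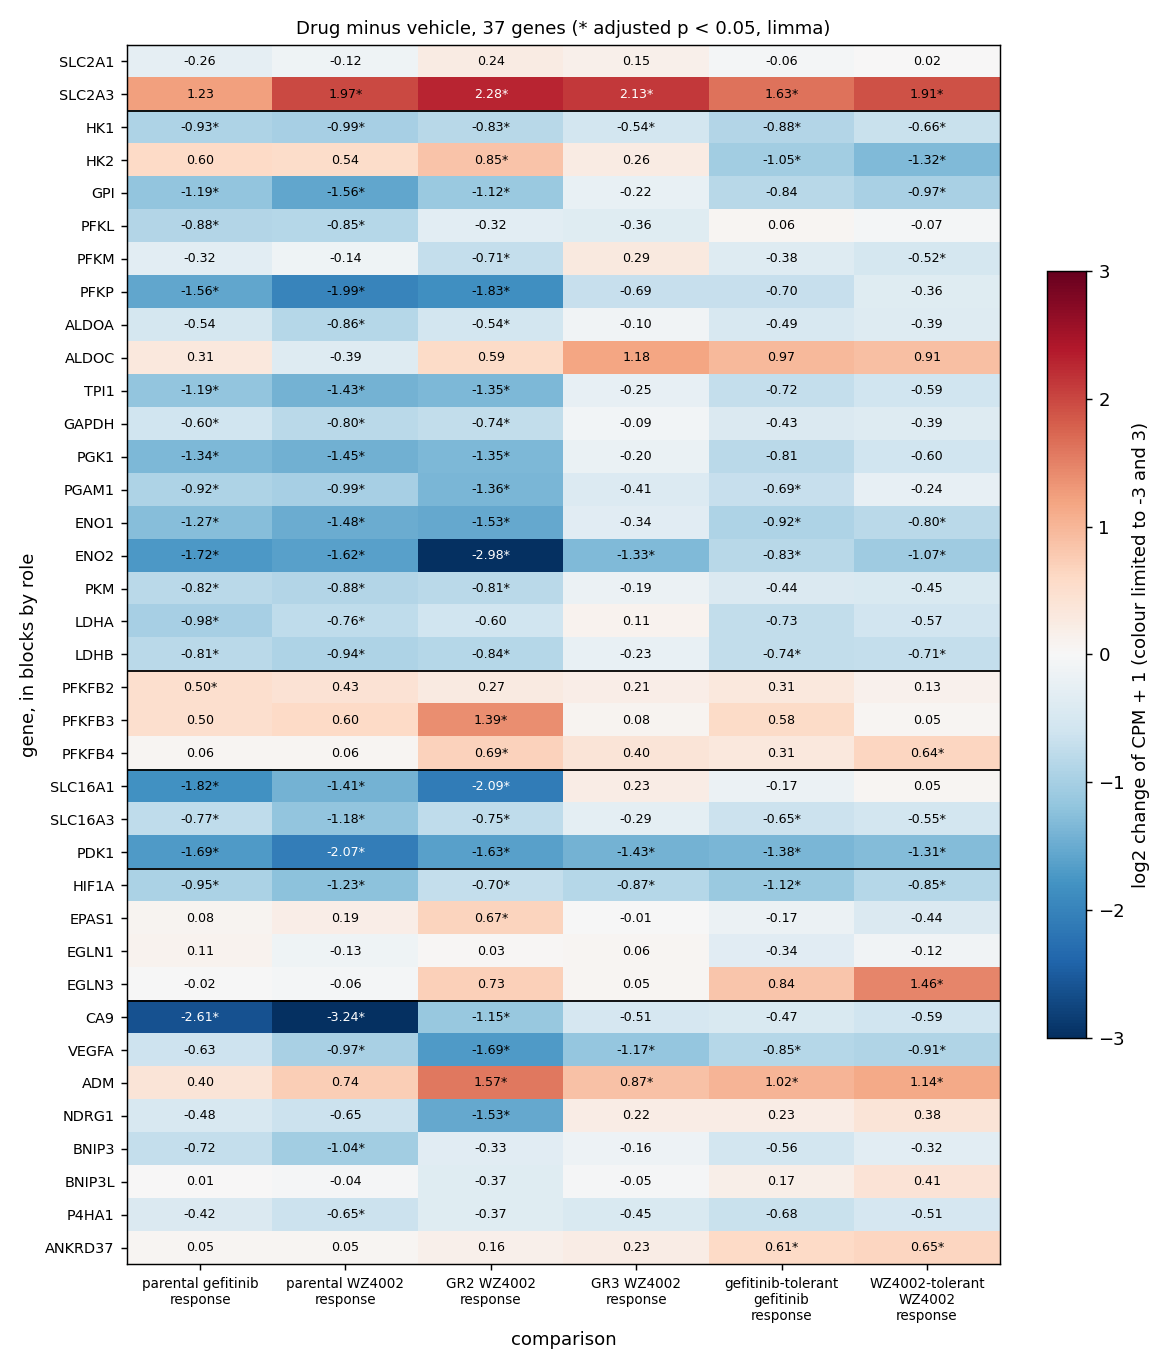
Log2 change of CPM + 1 under drug against vehicle for the 37 genes (rows, in blocks by role) in the 6 drug responses (columns); each cell prints the change from 2 libraries a group, and a star marks an adjusted p under 0.05. HK1, ENO2, PDK1 and HIF1A carry a star and a negative value in all 6 columns, and the PC9-GR3 column has 7 stars.

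SLC2A3, a high-affinity glucose transporter (GLUT3), was higher under drug in 5 responses, while SLC2A1, the main basal transporter (GLUT1), passed in none. SLC2A3 stood at 24.9 and 24.4 CPM in vehicle and at 96.3 and 158 CPM in WZ4002 libraries of PC9-GR2 cells (2.28 ± 0.56, adjusted p = 0.00272). It stood at 92.5 and 62 CPM in vehicle and at 280.1 and 401 CPM in WZ4002 libraries of PC9-GR3 cells (2.13 ± 0.56, adjusted p = 0.0131). In both derivatives both drug libraries lay above both vehicle libraries.

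In WZ4002-tolerant cells SLC2A3 went from 53.1 and 62.2 CPM to 195 and 246 CPM under WZ4002 (1.91 ± 0.56, adjusted p = 0.0171). In gefitinib-tolerant cells it went from 44.1 and 106 CPM to 158 and 289 CPM under gefitinib (1.63 ± 0.56, adjusted p = 0.0392). The groups did not overlap in either. Parental libraries were scattered: vehicle held 98.5 and 29.7 CPM, gefitinib 139.8 and 118 CPM (1.23 ± 0.56, adjusted p = 0.0842) and WZ4002 116 and 399 CPM (1.97 ± 0.56, adjusted p = 0.00897). Each parental drug library was above both vehicle libraries, but the vehicle pair itself differed by more than 3-fold. The parental WZ4002 call ended without parental vehicle library 2 (adjusted p = 0.145) and without parental WZ4002 library 2 (adjusted p = 0.153). The call in PC9-GR3 ended without PC9-GR3 vehicle library 2 (adjusted p = 0.0661) and without PC9-GR3 WZ4002 library 2 (adjusted p = 0.0955), that in gefitinib-tolerant cells without gefitinib-tolerant vehicle library 1 (adjusted p = 0.362) and without gefitinib-tolerant gefitinib library 2 (adjusted p = 0.301), and that in WZ4002-tolerant cells without WZ4002-tolerant vehicle library 1 (adjusted p = 0.115), without WZ4002-tolerant WZ4002 library 1 (adjusted p = 0.0526) and without WZ4002-tolerant WZ4002 library 2 (adjusted p = 0.0877). The call in PC9-GR2 held in all 4 fits.

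SLC2A1 lay between 84.1 and 203 CPM in the 22 libraries. Its changes under drug ran from -0.26 in parental cells under gefitinib to 0.24 in PC9-GR2 cells, with no adjusted p under 0.05.

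Hexokinases trap glucose in the cell, and the isoforms HK1 and HK2 went different ways. HK1 fell in all 6 responses. Parental cells held 163 and 150.0 CPM in vehicle, 76.7 and 86.8 CPM under gefitinib (-0.93 ± 0.11, adjusted p = 1.88e-05) and 81.2 and 75.7 CPM under WZ4002 (-0.99 ± 0.11, adjusted p = 1.04e-05). PC9-GR2 cells went from 154 and 157 CPM to 86.9 and 86.7 CPM (-0.83 ± 0.11, adjusted p = 2.04e-05). All drug libraries of HK1 lay below all vehicle libraries of their population.

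PC9-GR3 cells held 130.5 and 109 CPM of HK1 in vehicle and 83 and 80.2 CPM under WZ4002 (-0.54 ± 0.11, adjusted p = 0.00364). Gefitinib-tolerant cells went from 157 and 144 CPM to 85.7 and 76.9 CPM (-0.88 ± 0.11, adjusted p = 0.000232), and WZ4002-tolerant cells from 149 and 138 CPM to 85.2 and 95.5 CPM (-0.66 ± 0.11, adjusted p = 0.00086). HK1 did not pass in any test of a difference between responses.

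HK2, the inducible hexokinase, rose in PC9-GR2 cells and fell in both tolerant populations. PC9-GR2 cells held 131 and 132 CPM in vehicle and 189 and 299 CPM under WZ4002 (0.85 ± 0.25, adjusted p = 0.00923). Gefitinib-tolerant cells went from 69.9 and 48.9 CPM to 30.7 and 25.2 CPM under gefitinib (-1.05 ± 0.25, adjusted p = 0.00698). WZ4002-tolerant cells went from 81.8 and 46.8 CPM to 21.9 and 26.7 CPM under WZ4002 (-1.32 ± 0.25, adjusted p = 0.00158). None of these groups overlapped. Parental cells held 112 and 103 CPM in vehicle, 177 and 150.4 CPM under gefitinib and 151 and 163 CPM under WZ4002. The parental changes of 0.60 ± 0.25 (adjusted p = 0.064) and 0.54 ± 0.25 (adjusted p = 0.0868) did not pass. The PC9-GR2 call ended without PC9-GR2 WZ4002 library 2 (adjusted p = 0.146), and the gefitinib-tolerant call ended without gefitinib-tolerant vehicle library 1 (adjusted p = 0.119) and without gefitinib-tolerant gefitinib library 2 (adjusted p = 0.091). The WZ4002-tolerant call held in all 4 fits.

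The middle and lower enzymes of glycolysis fell together in parental and PC9-GR2 cells. Of the 17 enzymes, 13 were lower under gefitinib (76.5%; background 21.8%) and 14 under WZ4002 (82.4%; background 22.3%) in parental cells, and 13 were lower (76.5%; background 28.3%) and 1 higher in PC9-GR2 cells. Their median changes were -0.92, -0.94 and -0.83. ENO1, the main enolase, stood at 1326 and 850.4 CPM in parental vehicle, 412 and 468 CPM under gefitinib (-1.27 ± 0.22, adjusted p = 0.000354) and 414 and 349.8 CPM under WZ4002 (-1.48 ± 0.22, adjusted p = 9.94e-05). In PC9-GR2 cells it went from 1073 and 1114 CPM to 395 and 361 CPM (-1.53 ± 0.22, adjusted p = 3.63e-05). No drug library of ENO1 overlapped vehicle in these 3 responses, and the calls held in all fits without 1 library.

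PFKP, the platelet form of phosphofructokinase, which commits sugar to glycolysis, moved further. It stood at 97.9 and 63.6 CPM in parental vehicle, 25.9 and 26.3 CPM under gefitinib (-1.56 ± 0.25, adjusted p = 0.000196) and 21.8 and 16.7 CPM under WZ4002 (-1.99 ± 0.25, adjusted p = 2.54e-05). For PC9-GR2 the levels went from 121 and 120.4 CPM to 38.6 and 28.6 CPM (-1.83 ± 0.25, adjusted p = 2.36e-05). Its groups did not overlap, and all 3 calls held without any 1 library. The liver form PFKL passed in parental cells (-0.88 under gefitinib and -0.85 under WZ4002), and the muscle form PFKM passed in PC9-GR2 (-0.71 ± 0.18, adjusted p = 0.00356) and WZ4002-tolerant cells (-0.52 ± 0.18, adjusted p = 0.0388). The PFKM call in tolerant cells ended without any 1 of the 4 libraries (adjusted p = 0.0727 to 0.203).

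ENO2, the neuronal enolase, was lower in all 6 responses. It stood at 13.7 and 8.07 CPM in parental vehicle, 1.95 and 3.15 CPM under gefitinib (-1.72 ± 0.28, adjusted p = 0.000193) and 2.45 and 3.09 CPM under WZ4002 (-1.62 ± 0.28, adjusted p = 0.000291). PC9-GR2 cells went from 9.82 and 11.1 CPM to 0.6 and 0.31 CPM (-2.98 ± 0.28, adjusted p = 5.18e-07). PC9-GR3 cells went from 10.7 and 5.54 CPM to 2.32 and 2.65 CPM (-1.33 ± 0.28, adjusted p = 0.00365), a call that ended without PC9-GR3 vehicle library 1 (adjusted p = 0.0588). The changes were -0.83 ± 0.28, adjusted p = 0.0375 in gefitinib-tolerant and -1.07 ± 0.28, adjusted p = 0.00992 in WZ4002-tolerant cells. The gefitinib-tolerant call ended without any 1 of the 4 libraries (adjusted p = 0.0612 to 0.221), and the WZ4002-tolerant call ended without WZ4002-tolerant vehicle library 1 (adjusted p = 0.129) and without WZ4002-tolerant WZ4002 library 1 (adjusted p = 0.0891).

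PGK1, which makes the first ATP of the pathway, stood at 620.2 and 335 CPM in parental vehicle and at 163 and 198 CPM under gefitinib (-1.34 ± 0.31, adjusted p = 0.00241). Under WZ4002 it stood at 183 and 151 CPM (-1.45 ± 0.31, adjusted p = 0.00132). In PC9-GR2 cells it went from 415 and 405 CPM to 164 and 156 CPM (-1.35 ± 0.31, adjusted p = 0.00155). All drug libraries lay below vehicle, and the gefitinib call ended without parental vehicle library 1 (adjusted p = 0.0549).

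GPI and TPI1, which isomerise sugar phosphates, GAPDH, PGAM1, the pyruvate kinase gene PKM and LDHB passed as lower in all 3 responses of parental and PC9-GR2 cells. Their changes ran from -0.60 for GAPDH under gefitinib to -1.56 for GPI under WZ4002. GAPDH and PGAM1 have near-identical pseudogene copies, so their counts may hold or miss reads of these. Under gefitinib in parental cells GAPDH ended without parental vehicle library 1 (adjusted p = 0.224), without parental gefitinib library 1 (adjusted p = 0.0586) and without parental gefitinib library 2 (adjusted p = 0.069). GPI, TPI1 and PKM ended there without 1 library each: GPI without parental vehicle library 1 (adjusted p = 0.0604), TPI1 without parental vehicle library 1 (adjusted p = 0.0556) and PKM without parental gefitinib library 1 (adjusted p = 0.051). LDHB ended without parental vehicle library 1 (adjusted p = 0.0807) and without parental gefitinib library 1 (adjusted p = 0.0614). Under WZ4002, GAPDH ended without parental vehicle library 1 (adjusted p = 0.0557), PFKL without parental vehicle library 1 (adjusted p = 0.0565) and without parental WZ4002 library 1 (adjusted p = 0.0504) and LDHB without parental WZ4002 library 2 (adjusted p = 0.0613) in parental cells, and GPI without PC9-GR2 WZ4002 library 2 (adjusted p = 0.0579) in PC9-GR2. ALDOA, the main aldolase, passed under WZ4002 in parental (-0.86 ± 0.21, adjusted p = 0.00395) and PC9-GR2 cells (-0.54 ± 0.21, adjusted p = 0.0412). In PC9-GR2 the ALDOA call ended without any 1 of the 4 libraries (adjusted p = 0.0617 to 0.194), and in parental cells without parental vehicle library 1 (adjusted p = 0.057) and without parental WZ4002 library 2 (adjusted p = 0.05). ALDOC passed in no drug response, with changes of -0.39 to 1.18.

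LDHA, which makes lactate, stood at 1295 and 964 CPM in parental vehicle, 498 and 639 CPM under gefitinib (-0.98 ± 0.27, adjusted p = 0.00783) and 643 and 674 CPM under WZ4002 (-0.76 ± 0.27, adjusted p = 0.0296). The groups did not overlap. The gefitinib call ended without parental vehicle library 1 (adjusted p = 0.0908) and without parental gefitinib library 1 (adjusted p = 0.0774), and the WZ4002 call ended without parental vehicle library 1 (adjusted p = 0.215), without parental WZ4002 library 1 (adjusted p = 0.0976) and without parental WZ4002 library 2 (adjusted p = 0.0778). In PC9-GR2 cells LDHA went from 890.0 and 914 CPM to 563 and 625 CPM, a change of -0.60 ± 0.27 that did not pass (adjusted p = 0.0687).

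In PC9-GR3 and tolerant cells fewer enzymes passed, which by itself does not show a smaller response. In the test of the difference from the parental response, 0 of 17 enzymes passed for PC9-GR3 (background 1.29%). Their median difference, PC9-GR3 less parental, was 0.71. Of the 17, 12 had an unadjusted p under 0.05 in limma, as did 2537 of all tested genes. The count of 0 therefore does not show that these responses were alike. In the same test, 1 enzyme was lower for gefitinib-tolerant cells (5.88%, background 2%). For WZ4002-tolerant cells 1 was higher and 1 lower (11.8%, background 4.49%). The median differences were 0.35 and 0.55, and 4 and 5 enzymes had an unadjusted p under 0.05 (2407 and 3204 of all tested genes). Against vehicle, 2 of 17 were lower in PC9-GR3 cells, HK1 and ENO2 (11.8%, near the background of 9.87%), and the median change was -0.22. In gefitinib-tolerant cells 6 were lower (HK1, HK2, PGAM1, ENO1, ENO2 and LDHB; 35.3%, background 13.6%; median -0.72), and in WZ4002-tolerant cells 7 (HK1, HK2, GPI, PFKM, ENO1, ENO2 and LDHB; 41.2%, background 15.6%; median -0.57). ENO1 went from 919.7 and 773 CPM to 541 and 365 CPM under gefitinib in gefitinib-tolerant cells (-0.92 ± 0.22, adjusted p = 0.00727). It went from 934 and 818 CPM to 463 and 542 CPM under WZ4002 in WZ4002-tolerant cells (-0.80 ± 0.22, adjusted p = 0.0137). Neither pair of groups overlapped. The first call ended without gefitinib-tolerant vehicle library 1 (adjusted p = 0.0973) and without gefitinib-tolerant gefitinib library 2 (adjusted p = 0.137), and the second without WZ4002-tolerant vehicle library 1 (adjusted p = 0.118) and without WZ4002-tolerant WZ4002 library 1 (adjusted p = 0.0945). HK1 held in all fits of these populations. In gefitinib-tolerant cells PGAM1 ended without gefitinib-tolerant vehicle library 1 (adjusted p = 0.156), without gefitinib-tolerant vehicle library 2 (adjusted p = 0.0539) and without gefitinib-tolerant gefitinib library 2 (adjusted p = 0.179), and LDHB without gefitinib-tolerant vehicle library 1 (adjusted p = 0.208) and without gefitinib-tolerant gefitinib library 2 (adjusted p = 0.259). In WZ4002-tolerant cells GPI ended without WZ4002-tolerant vehicle library 1 (adjusted p = 0.179), without WZ4002-tolerant WZ4002 library 1 (adjusted p = 0.1) and without WZ4002-tolerant WZ4002 library 2 (adjusted p = 0.0785), and LDHB without WZ4002-tolerant vehicle library 1 (adjusted p = 0.178), without WZ4002-tolerant vehicle library 2 (adjusted p = 0.0517) and without WZ4002-tolerant WZ4002 library 1 (adjusted p = 0.164).

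The PC9-GR3 result depended on which vehicle library was used. Without PC9-GR3 vehicle library 1 the enzyme median was 0.13, with 1 enzyme higher and 1 lower, and without vehicle library 2 it was -0.63, with 8 lower. Of all genes, 12.8% and 23.8% passed in these fits. In parental cells the spread of the vehicle pair moved the counts less: without vehicle library 1, 7 enzymes were lower under gefitinib (median -0.77) and 10 under WZ4002 (median -0.83), and without library 2 it was 14 in each (medians -1.03 and -1.06). Of all genes, 29.2% and 31.3% passed without library 1, and 38.1% and 39.9% without library 2.

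The summed level of genes of the dividing cell was lower under drug as well, though drug and vehicle libraries overlapped in PC9-GR3 cells. The summed CPM of the proliferation genes MKI67, TOP2A, CDK1, CCNB1, MCM2 and MCM7 was 1159 and 770.1 in parental vehicle libraries, 196.7 and 143.3 under gefitinib, and 144.1 and 425.8 under WZ4002. In PC9-GR2 cells the sum went from 1209 and 1142 to 414.6 and 170.4, and in PC9-GR3 cells from 1468 and 705.3 to 720.3 and 261. In gefitinib-tolerant cells it went from 1135 and 1122 to 814.2 and 555.1, and in WZ4002-tolerant cells from 1383 and 1011 to 549.5 and 579.9. The part of cell division in the glycolysis results was not tested.

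The PFKFB enzymes set the level of fructose 2,6-bisphosphate, an activator of phosphofructokinase. PFKFB3, the isoform with the strongest kinase activity, rose in PC9-GR2 cells from 19.9 and 21.8 CPM in vehicle to 60.3 and 52.7 CPM under WZ4002 (1.39 ± 0.33, adjusted p = 0.00201), with no overlap, and held without any 1 library. It passed in no other response, with changes of 0.05 to 0.60. PFKFB4 went from 3.87 and 4.62 CPM to 7.31 and 7.55 CPM in PC9-GR2 cells (0.69 ± 0.24, adjusted p = 0.0216) and passed in WZ4002-tolerant cells (0.64 ± 0.24, adjusted p = 0.0486). PFKFB2 passed as higher in parental cells under gefitinib (0.50 ± 0.19, adjusted p = 0.0435). The PFKFB4 call in PC9-GR2 ended without PC9-GR2 WZ4002 library 1 (adjusted p = 0.065), without PC9-GR2 WZ4002 library 2 (adjusted p = 0.0849) and without PC9-GR2 vehicle library 1 (adjusted p = 0.128). Its call in WZ4002-tolerant cells ended without WZ4002-tolerant vehicle library 1 (adjusted p = 0.484), without WZ4002-tolerant WZ4002 library 1 (adjusted p = 0.108) and without WZ4002-tolerant WZ4002 library 2 (adjusted p = 0.172), and the PFKFB2 call ended without any 1 of the 4 libraries (adjusted p = 0.0614 to 0.22).

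SLC16A1, the lactate and pyruvate carrier MCT1, fell in parental and PC9-GR2 cells and did not pass in the other populations. It stood at 94.9 and 78.8 CPM in parental vehicle, 26.3 and 21.5 CPM under gefitinib (-1.82 ± 0.20, adjusted p = 8.99e-06) and 25.8 and 39.6 CPM under WZ4002 (-1.41 ± 0.20, adjusted p = 6.64e-05). In the PC9-GR2 derivative it went from 156 and 145 CPM to 35.2 and 33.8 CPM (-2.09 ± 0.20, adjusted p = 6.88e-07). These 3 pairs of groups were far apart, and the calls held without any 1 library.

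In PC9-GR3 cells SLC16A1 stood at 167 and 152 CPM in vehicle and 158 and 223 CPM under WZ4002 (0.23 ± 0.20, adjusted p = 0.446). Gefitinib-tolerant cells held 259 and 209 CPM in vehicle and 211 and 203 CPM under gefitinib (-0.17 ± 0.20, adjusted p = 0.546). WZ4002-tolerant cells held 220.5 and 233 CPM in vehicle and 202 and 274 CPM under WZ4002 (0.05 ± 0.20, adjusted p = 0.859). Drug and vehicle libraries overlapped in all 3 populations.

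SLC16A3, the lactate exporter MCT4, was lower in 5 responses. It stood at 110.2 and 94 CPM in parental vehicle, 54 and 64.8 CPM under gefitinib (-0.77 ± 0.13, adjusted p = 0.00028) and 47.8 and 41.4 CPM under WZ4002 (-1.18 ± 0.13, adjusted p = 8.23e-06). The changes were -0.75 ± 0.13, adjusted p = 0.000189 in PC9-GR2, -0.65 ± 0.13, adjusted p = 0.00262 in gefitinib-tolerant and -0.55 ± 0.13, adjusted p = 0.00606 in WZ4002-tolerant cells. PC9-GR3 cells went from 67.7 and 60.3 CPM to 47.4 and 56.8 CPM (-0.29 ± 0.13, adjusted p = 0.119), which did not pass. Of the 5 calls, that in WZ4002-tolerant cells ended without WZ4002-tolerant vehicle library 1 (adjusted p = 0.0607).

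PDK1, the kinase that closes pyruvate dehydrogenase and so keeps pyruvate from the citric acid cycle, was lower in all 6 responses. It stood at 56.5 and 28.3 CPM in parental vehicle, 9.52 and 14.4 CPM under gefitinib (-1.69 ± 0.40, adjusted p = 0.00305) and 13.2 and 5.79 CPM under WZ4002 (-2.07 ± 0.40, adjusted p = 0.000696). In PC9-GR2 cells it went from 31.7 and 33 CPM to 9.83 and 9.68 CPM (-1.63 ± 0.40, adjusted p = 0.00273). In PC9-GR3 cells it went from 69.2 and 27.8 CPM to 17.7 and 13.9 CPM (-1.43 ± 0.40, adjusted p = 0.019). No drug library reached its vehicle libraries, though vehicle library 1 was much higher than library 2 in parental and PC9-GR3 cells.

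In gefitinib-tolerant cells PDK1 went from 42.5 and 43 CPM to 17.1 and 14.7 CPM (-1.38 ± 0.40, adjusted p = 0.0187), and in WZ4002-tolerant cells from 48.4 and 28.3 CPM to 13.2 and 15.7 CPM (-1.31 ± 0.40, adjusted p = 0.0216). Its promoter carried 2 of the printed matches. The call in parental cells under gefitinib ended without parental vehicle library 1 (adjusted p = 0.0602), and that in PC9-GR3 ended without PC9-GR3 vehicle library 1 (adjusted p = 0.236) and without PC9-GR3 WZ4002 library 2 (adjusted p = 0.117). The gefitinib-tolerant call ended without gefitinib-tolerant vehicle library 1 (adjusted p = 0.113), without gefitinib-tolerant vehicle library 2 (adjusted p = 0.0605) and without gefitinib-tolerant gefitinib library 2 (adjusted p = 0.137). The WZ4002-tolerant call ended without WZ4002-tolerant vehicle library 1 (adjusted p = 0.221), without WZ4002-tolerant WZ4002 library 1 (adjusted p = 0.11) and without WZ4002-tolerant WZ4002 library 2 (adjusted p = 0.0564).

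HIF1A, the alpha subunit of HIF-1, was lower in all 6 responses at the level of its transcript, which says nothing of protein stability. It stood at 221 and 261 CPM in parental vehicle, 108 and 143 CPM under gefitinib (-0.95 ± 0.28, adjusted p = 0.0112) and 161 and 64.8 CPM under WZ4002 (-1.23 ± 0.28, adjusted p = 0.00206). In gefitinib-tolerant cells it went from 325 and 308 CPM to 143 and 146 CPM (-1.12 ± 0.28, adjusted p = 0.00785). In WZ4002-tolerant cells it went from 368 and 294 CPM to 167 and 199 CPM (-0.85 ± 0.28, adjusted p = 0.0279). All drug libraries lay below vehicle.

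In PC9-GR2 cells HIF1A went from 291 and 277 CPM to 158 and 191 CPM (-0.70 ± 0.28, adjusted p = 0.0402), and in PC9-GR3 cells from 216 and 229.5 CPM to 127 and 116 CPM (-0.87 ± 0.28, adjusted p = 0.0344). The PC9-GR2 call ended without any 1 of the 4 libraries (adjusted p = 0.0615 to 0.19), and the PC9-GR3 call ended without any 1 of the 4 libraries (adjusted p = 0.0812 to 0.15). The parental gefitinib call ended without parental gefitinib library 1 (adjusted p = 0.106) and without parental vehicle library 2 (adjusted p = 0.0718). The gefitinib-tolerant call ended without gefitinib-tolerant vehicle library 1 (adjusted p = 0.076) and without gefitinib-tolerant gefitinib library 2 (adjusted p = 0.0648), and the WZ4002-tolerant call without WZ4002-tolerant vehicle library 1 (adjusted p = 0.204), without WZ4002-tolerant WZ4002 library 1 (adjusted p = 0.151) and without WZ4002-tolerant WZ4002 library 2 (adjusted p = 0.056).

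EPAS1, the alpha subunit of HIF-2, rose in PC9-GR2 cells from 168 and 165 CPM to 247 and 284 CPM (0.67 ± 0.23, adjusted p = 0.0238), a call that ended without PC9-GR2 WZ4002 library 2 (adjusted p = 0.13), without PC9-GR2 vehicle library 1 (adjusted p = 0.0783) and without PC9-GR2 vehicle library 2 (adjusted p = 0.0874). EGLN3, an oxygen-sensing prolyl hydroxylase that is itself a HIF target, rose in WZ4002-tolerant cells from 24.2 and 39.9 CPM to 72.2 and 106 CPM (1.46 ± 0.32, adjusted p = 0.00352). That call ended without WZ4002-tolerant vehicle library 1 (adjusted p = 0.0702). In gefitinib-tolerant cells EGLN3 went from 26.9 and 35.1 CPM to 57.6 and 54.1 CPM (0.84 ± 0.32, adjusted p = 0.0588). EGLN1, the main prolyl hydroxylase of HIF-1, passed in no response, with changes of -0.34 to 0.11.

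The hypoxia targets outside glycolysis did not move as a block. Of 8, 1 was lower in parental cells under gefitinib (CA9; 12.5%, background 21.8%) and 4 under WZ4002 (CA9, VEGFA, BNIP3 and P4HA1; 50%, background 22.3%). In PC9-GR2 cells 3 were lower (CA9, VEGFA and NDRG1; 37.5%, background 28.3%) and 1 higher (ADM; 12.5%, background 27.4%). In PC9-GR3 cells VEGFA was lower and ADM higher (12.5% each; background 9.87% and 12.1%), and in both tolerant populations VEGFA was lower (12.5%; background 13.6% and 15.6%) and ADM was higher (background 15.2% and 17%), besides ANKRD37. The median changes of the 8 genes were -0.45, -0.65, -0.37, -0.10, -0.15 and 0.03 in the order parental gefitinib, parental WZ4002, PC9-GR2, PC9-GR3, gefitinib-tolerant and WZ4002-tolerant. Without parental vehicle library 1 the parental medians were 0.01 and -0.13, and without library 2 they were -0.76 and -1.04.

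CA9, carbonic anhydrase IX, which exports acid and is a standard marker of HIF-1 activity, stood at 33 and 11 CPM in parental vehicle libraries. It stood at 2.58 and 2.07 CPM under gefitinib (-2.61 ± 0.43, adjusted p = 0.00021) and 1.99 and 0.52 CPM under WZ4002 (-3.24 ± 0.43, adjusted p = 3.27e-05). The vehicle libraries differed 3-fold and the drug libraries were all below both. PC9-GR2 cells started low, at 1.53 and 1.81 CPM, and held 0.21 and 0.2 CPM under WZ4002 (-1.15 ± 0.43, adjusted p = 0.0326), a call that ended without any 1 of the 4 libraries (adjusted p = 0.0821 to 0.124). The parental calls held in all fits without 1 library. In the other populations CA9 was at most 1.7 CPM in vehicle, and its changes of -0.51, -0.47 and -0.59 did not pass.

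VEGFA, which drives vessel growth, was lower in 5 responses. Libraries of PC9-GR2 went from 159 and 149 CPM to 41.1 and 53.9 CPM (-1.69 ± 0.31, adjusted p = 0.000265). In PC9-GR3 cells it went from 76 and 148 CPM to 36.4 and 59.8 CPM (-1.17 ± 0.31, adjusted p = 0.0136). Under WZ4002 parental cells went from 122 and 109 CPM to 74 and 46.5 CPM (-0.97 ± 0.31, adjusted p = 0.0173). The groups did not overlap in these responses, and in PC9-GR3 vehicle library 2 was the higher one. The changes were -0.85 ± 0.31, adjusted p = 0.0482 in gefitinib-tolerant and -0.91 ± 0.31, adjusted p = 0.0335 in WZ4002-tolerant cells. The PC9-GR2 call held in all fits. The others ended in 2 to 4 of 4 fits: in parental cells without parental vehicle library 1 (adjusted p = 0.0955) and without parental WZ4002 library 2 (adjusted p = 0.174), in PC9-GR3 without PC9-GR3 WZ4002 library 1 (adjusted p = 0.132) and without PC9-GR3 vehicle library 2 (adjusted p = 0.133), in gefitinib-tolerant cells without any 1 of the 4 libraries (adjusted p = 0.0688 to 0.273) and in WZ4002-tolerant cells without WZ4002-tolerant vehicle library 1 (adjusted p = 0.231), without WZ4002-tolerant WZ4002 library 1 (adjusted p = 0.0858) and without WZ4002-tolerant WZ4002 library 2 (adjusted p = 0.136).

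ADM, a vasodilator peptide, went the other way. In PC9-GR2 cells it rose from 5.95 and 6.05 CPM to 19.6 and 20.2 CPM (1.57 ± 0.30, adjusted p = 0.000394), and in PC9-GR3 cells from 27.6 and 20.9 CPM to 44.6 and 45.1 CPM (0.87 ± 0.30, adjusted p = 0.0485). In gefitinib-tolerant cells it rose from 14.5 and 13.3 CPM to 24.9 and 34.3 CPM (1.02 ± 0.30, adjusted p = 0.0195). All drug libraries were above their vehicle libraries. In WZ4002-tolerant cells ADM rose from 11 and 14.9 CPM to 27.2 and 32.1 CPM (1.14 ± 0.30, adjusted p = 0.0101). Parental cells held 15.6 and 6.74 CPM in vehicle, 15.4 and 12.6 CPM under gefitinib (0.40 ± 0.30, adjusted p = 0.298) and 13.1 and 24.3 CPM under WZ4002 (0.74 ± 0.30, adjusted p = 0.0533), and neither passed. The PC9-GR2 call held in all fits. The PC9-GR3 call ended without any 1 of the 4 libraries (adjusted p = 0.0726 to 0.194), the gefitinib-tolerant call without gefitinib-tolerant vehicle library 1 (adjusted p = 0.1), without gefitinib-tolerant vehicle library 2 (adjusted p = 0.0731) and without gefitinib-tolerant gefitinib library 2 (adjusted p = 0.197), and the WZ4002-tolerant call without WZ4002-tolerant vehicle library 1 (adjusted p = 0.116) and without WZ4002-tolerant WZ4002 library 2 (adjusted p = 0.0642).

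NDRG1, a stress gene induced by hypoxia, fell in PC9-GR2 cells from 187 and 184 CPM to 74.4 and 54.5 CPM (-1.53 ± 0.36, adjusted p = 0.00204), and the call held without any 1 library. In parental cells the vehicle pair of 394 and 145 CPM overlapped or enclosed the drug libraries, at 165 and 177 CPM under gefitinib (-0.48 ± 0.36, adjusted p = 0.295) and 159.9 and 144 CPM under WZ4002 (-0.65 ± 0.36, adjusted p = 0.149). Its changes elsewhere were 0.22, 0.23 and 0.38.

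BNIP3, a mitophagy receptor, and P4HA1, a collagen prolyl hydroxylase, passed under WZ4002 in parental cells (-1.04 ± 0.37, adjusted p = 0.031 and -0.65 ± 0.26, adjusted p = 0.0493). The P4HA1 groups overlapped. The BNIP3 call ended without parental vehicle library 1 (adjusted p = 0.446) and without parental WZ4002 library 2 (adjusted p = 0.172), and the P4HA1 call ended without parental vehicle library 1 (adjusted p = 0.495) and without parental WZ4002 library 2 (adjusted p = 0.493). BNIP3L, a related receptor, passed in no drug response (-0.37 to 0.41). ANKRD37 lay between 0.28 and 1.84 CPM. It went from 0.36 and 0.79 CPM to 0.99 and 1.84 CPM in gefitinib-tolerant (0.61 ± 0.20, adjusted p = 0.0305) and from 0.44 and 0.67 CPM to 1.64 and 1.23 CPM in WZ4002-tolerant cells (0.65 ± 0.20, adjusted p = 0.0208). ANKRD37 entered the test through drug-treated libraries, the only ones at 1 CPM or more, so its calls are a description. They ended without gefitinib-tolerant vehicle library 1 (adjusted p = 0.296) and without gefitinib-tolerant gefitinib library 2 (adjusted p = 0.346) in the first and without WZ4002-tolerant vehicle library 1 (adjusted p = 0.167) and without WZ4002-tolerant WZ4002 library 1 (adjusted p = 0.137) in the second.

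**Figure D2:**
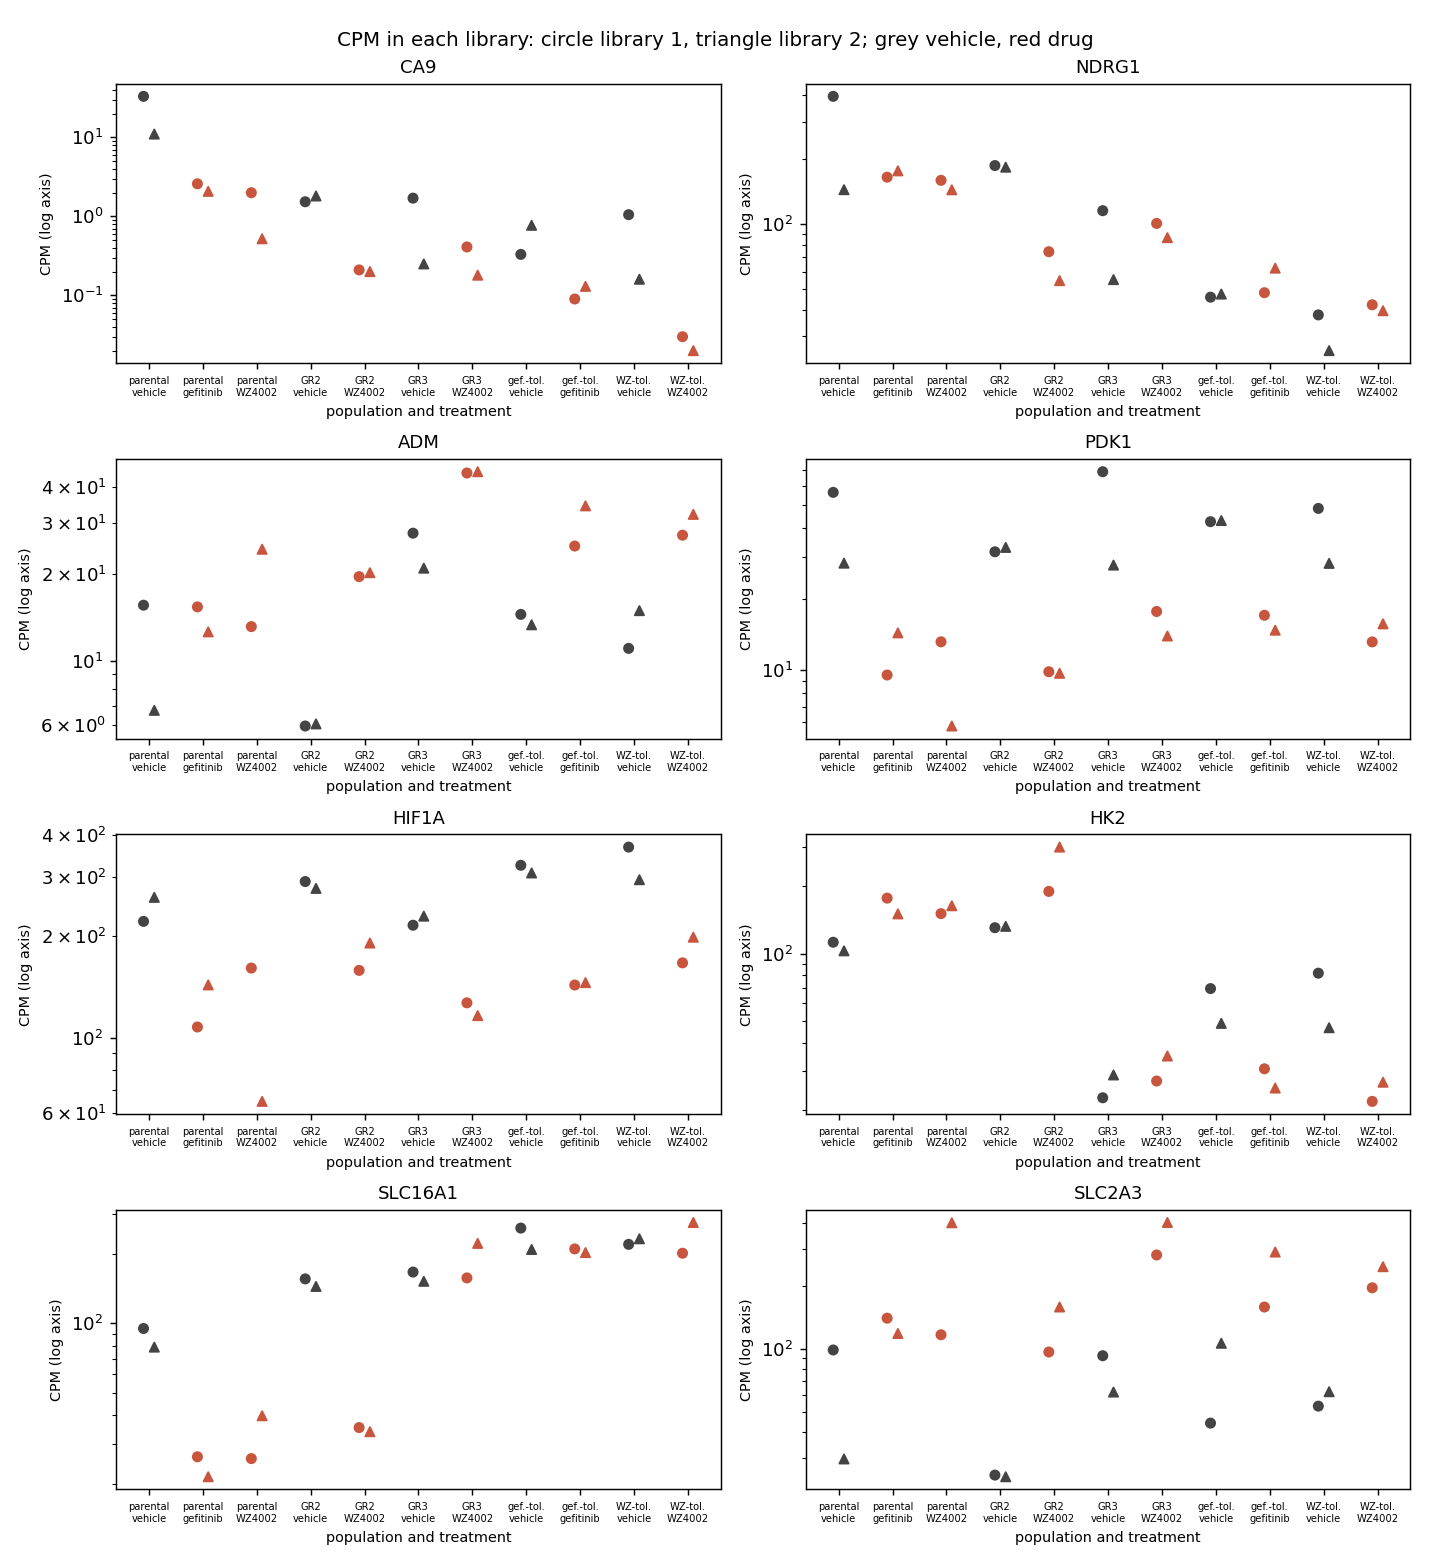
CPM of 8 of the genes (1 panel each, log axis) in the 11 groups along the x axis; a circle is library 1 and a triangle library 2, grey for vehicle and red for drug. CA9 is at 33 and 11 CPM in parental vehicle libraries and at most 2.58 CPM in all others, and SLC16A1 stays at 158 CPM or more in drug-treated PC9-GR3 and tolerant cells.

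The levels of the enzymes and of the hypoxia targets were compared over all 11 groups as the mean log2(CPM + 1) of each list in a library, less its mean in the parental vehicle pair. For the 17 enzymes the vehicle libraries stood at 0.22 and -0.22 in parental, -0.10 and -0.08 in PC9-GR2, -0.33 and -1.07 in PC9-GR3, -0.29 and -0.37 in gefitinib-tolerant and -0.24 and -0.45 in WZ4002-tolerant cells. The drug libraries stood at -0.92 and -0.75 in parental cells under gefitinib, -0.87 and -1.08 under WZ4002, -0.95 and -1.04 in PC9-GR2, -0.85 and -0.92 in PC9-GR3, -0.81 and -0.98 in gefitinib-tolerant and -0.93 and -0.79 in WZ4002-tolerant cells. All 12 drug-treated libraries thus lay between -1.08 and -0.75. Of the vehicle libraries, PC9-GR3 library 2 was as low as they were and the other 9 were higher.

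For the 8 hypoxia targets the picture was different. Parental vehicle stood at 0.40 and -0.40, PC9-GR2 vehicle at -0.51 in both libraries, PC9-GR3 vehicle at -0.38 and -0.83, gefitinib-tolerant vehicle at -0.88 and -0.83 and WZ4002-tolerant vehicle at -0.93 and -1.16. Under drug they stood at -0.56 and -0.54 in parental cells with gefitinib, -0.55 and -0.90 with WZ4002, -0.91 and -1.03 in PC9-GR2, -0.71 and -0.76 in PC9-GR3, -1.04 and -0.80 in gefitinib-tolerant and -1.05 and -0.98 in WZ4002-tolerant cells. Vehicle and drug libraries overlapped in PC9-GR3 and in both tolerant populations. The tolerant vehicle libraries were as low as drug-treated libraries for this list and not for the enzymes. CA9 and NDRG1 carried most of their distance from the parental vehicle mean. Without these genes the other 6 stood at -0.12 and -0.14 in gefitinib-tolerant and -0.25 and -0.34 in WZ4002-tolerant vehicle libraries, against 0.29 and -0.29 in parental vehicle. The drug-treated libraries stood between -0.46 and -0.06 for these 6 genes, and the tolerant vehicle libraries lay within that range. These list means carry no test.

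**Figure D3:**
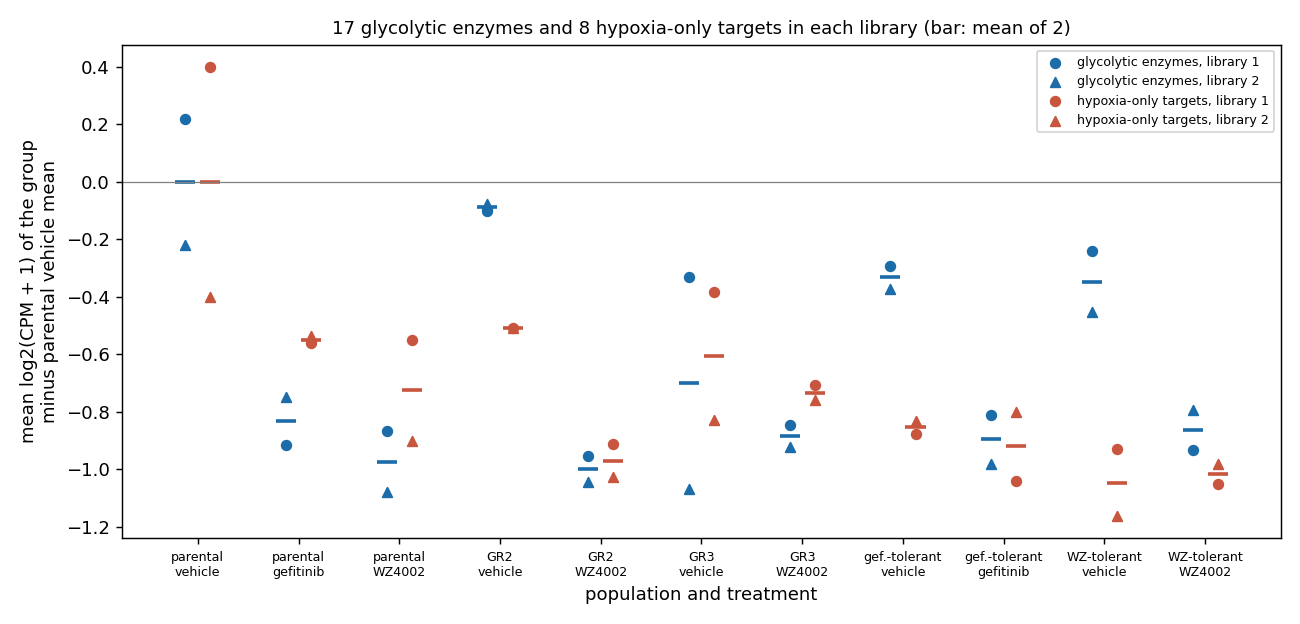
Mean log2(CPM + 1) of the 17 glycolytic enzymes and of the 8 hypoxia targets outside glycolysis in each library, less the parental vehicle mean, by group; points are libraries and bars the mean of 2. The drug-treated libraries lie between -1.08 and -0.75 for the enzymes, and vehicle and drug libraries overlap in the tolerant populations for the hypoxia targets.

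In vehicle, CA9 was lower and SLC16A1 higher in the 4 other populations than in parental cells. In PC9-GR2 against parental vehicle cells 2 of 37 members passed (5.41%; background 16.7%), 1 higher (background 8.98%) and 1 lower (background 7.76%). In PC9-GR3 against parental cells 12 passed (32.4%; background 20.8%), 2 higher (background 9.77%) and 10 lower (background 11.1%). In PC9-GR3 against PC9-GR2 cells 10 passed (27%; background 33.1%), 2 higher (background 15.6%) and 8 lower (background 17.5%). In gefitinib-tolerant cells 6 passed (16.2%; background 19%), 1 higher (background 9.39%) and 5 lower (background 9.64%). In WZ4002-tolerant cells 6 passed as well (16.2%; background 18.4%), 1 higher (background 8.72%) and 5 lower (background 9.73%). All 4 comparisons with parental cells use the same parental vehicle pair and are set side by side.

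CA9 was lower than in parental vehicle cells (33 and 11 CPM) in all 4 other populations. PC9-GR2 held 1.53 and 1.81 CPM (-2.92 ± 0.43, adjusted p = 0.000369) and PC9-GR3 1.7 and 0.25 CPM (-3.46 ± 0.43, adjusted p = 4.44e-05). Gefitinib-tolerant cells held 0.33 and 0.77 CPM (-3.72 ± 0.43, adjusted p = 4.20e-05) and WZ4002-tolerant cells 1.05 and 0.16 CPM (-3.71 ± 0.43, adjusted p = 4.88e-05). Every library lay below both parental libraries, and the calls held without any 1 library.

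NDRG1 was at 45.7 and 47.2 CPM in gefitinib-tolerant (-2.34 ± 0.36, adjusted p = 0.000416) and 37.8 and 25.7 CPM in WZ4002-tolerant vehicle cells (-2.90 ± 0.36, adjusted p = 9.49e-05), against 394 and 145 CPM in parental cells, and both calls held in all fits. PC9-GR3 held 116 and 55.1 CPM (-1.57 ± 0.36, adjusted p = 0.00583), a call that ended without parental vehicle library 1 (adjusted p = 0.104) and without PC9-GR3 vehicle library 2 (adjusted p = 0.0861). BNIP3L was lower in gefitinib-tolerant (-0.52 ± 0.17, adjusted p = 0.0453) and WZ4002-tolerant cells (-0.77 ± 0.17, adjusted p = 0.006), calls that ended without any 1 of the 4 libraries (adjusted p = 0.0554 to 0.298) in the first and without parental vehicle library 1 (adjusted p = 0.0528) and without WZ4002-tolerant vehicle library 2 (adjusted p = 0.0598) in the second.

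SLC16A1 was higher in all 4 populations. Against 94.9 and 78.8 CPM in parental vehicle cells, gefitinib-tolerant cells held 259 and 209 CPM (1.42 ± 0.20, adjusted p = 0.000225) and WZ4002-tolerant cells 220.5 and 233 CPM (1.38 ± 0.20, adjusted p = 0.000351), and both calls held in all fits. PC9-GR2 cells held 156 and 145 CPM (0.79 ± 0.20, adjusted p = 0.0147) and PC9-GR3 cells 167 and 152 CPM (0.88 ± 0.20, adjusted p = 0.00605). The PC9-GR2 call ended without parental vehicle library 2 (adjusted p = 0.127), without PC9-GR2 vehicle library 1 (adjusted p = 0.119) and without PC9-GR2 vehicle library 2 (adjusted p = 0.0626), and the PC9-GR3 call ended without parental vehicle library 2 (adjusted p = 0.0659).

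HK2 was low in PC9-GR3 cells, at 22.8 and 28.8 CPM, against 112 and 103 CPM in parental (-2.03 ± 0.25, adjusted p = 4.39e-05) and 131 and 132 CPM in PC9-GR2 cells (-2.31 ± 0.25, adjusted p = 5.73e-06), and these calls held in all fits. It was also lower in gefitinib-tolerant (-0.87 ± 0.25, adjusted p = 0.0241) and WZ4002-tolerant cells (-0.79 ± 0.25, adjusted p = 0.0386). The gefitinib-tolerant call ended without parental vehicle library 1 (adjusted p = 0.128), without parental vehicle library 2 (adjusted p = 0.0777) and without gefitinib-tolerant vehicle library 2 (adjusted p = 0.189). The WZ4002-tolerant call ended without parental vehicle library 1 (adjusted p = 0.169), without parental vehicle library 2 (adjusted p = 0.106) and without WZ4002-tolerant vehicle library 2 (adjusted p = 0.383), and that vehicle pair was wide at 81.8 and 46.8 CPM.

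ALDOC, the brain-type aldolase and a HIF target, was at 27 and 16.2 CPM in parental vehicle cells and lower in 3 populations. PC9-GR3 held 2.96 and 1.63 CPM (-2.77 ± 0.45, adjusted p = 0.000413), gefitinib-tolerant cells 1.76 and 4.39 CPM (-2.51 ± 0.45, adjusted p = 0.00122) and WZ4002-tolerant cells 1.99 and 2.31 CPM (-2.80 ± 0.45, adjusted p = 0.000603). No library overlapped the parental pair, and the calls held in all fits. PC9-GR2 cells held 8.37 and 7.83 CPM, a change of -1.27 ± 0.45 that did not pass (adjusted p = 0.0622), and PC9-GR3 was below PC9-GR2 (-1.50 ± 0.45, adjusted p = 0.0171), a call that ended without PC9-GR3 vehicle library 2 (adjusted p = 0.123), without PC9-GR2 vehicle library 1 (adjusted p = 0.0871) and without PC9-GR2 vehicle library 2 (adjusted p = 0.0668).

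PC9-GR3 vehicle cells had further members below the parental ones, namely SLC2A1, HK1, PFKL, ALDOA, PGK1 and SLC16A3. ALDOA (-1.03 ± 0.21, adjusted p = 0.00277) and SLC16A3 (-0.66 ± 0.13, adjusted p = 0.00212) held in all fits. PGK1 stood at 271 and 110.3 CPM against 620.2 and 335 CPM (-1.40 ± 0.31, adjusted p = 0.0043), a call that ended without parental vehicle library 1 (adjusted p = 0.0775) and without PC9-GR3 vehicle library 2 (adjusted p = 0.0613). The SLC2A1 call ended without parental vehicle library 1 (adjusted p = 0.111), without parental vehicle library 2 (adjusted p = 0.0819) and without PC9-GR3 vehicle library 2 (adjusted p = 0.198), the HK1 call without parental vehicle library 1 (adjusted p = 0.155), without parental vehicle library 2 (adjusted p = 0.0515) and without PC9-GR3 vehicle library 2 (adjusted p = 0.188), and the PFKL call without parental vehicle library 1 (adjusted p = 0.0949) and without PC9-GR3 vehicle library 2 (adjusted p = 0.101). Without PC9-GR3 vehicle library 1, 17 members passed in place of 12 (45.9%; all genes 20.5%), and 7 passed without PC9-GR3 vehicle library 2 or parental vehicle library 1 (18.9%; all genes 14.7% and 11.8%).

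ADM was higher in PC9-GR3, at 27.6 and 20.9 CPM, than in parental (1.15 ± 0.30, adjusted p = 0.0129) and PC9-GR2 vehicle cells (1.84 ± 0.30, adjusted p = 0.000243). The comparison with PC9-GR2 held in all fits, and that with parental cells ended without PC9-GR3 vehicle library 1 (adjusted p = 0.0822) and without parental vehicle library 2 (adjusted p = 0.202). SLC2A3 was higher in PC9-GR3 than in PC9-GR2 cells (1.58 ± 0.56, adjusted p = 0.0393), a call that ended without any 1 of the 4 libraries (adjusted p = 0.0604 to 0.172). HK1, PFKM, PFKP, PGK1, SLC16A3 and NDRG1 were lower in PC9-GR3 than in PC9-GR2, with changes of -0.38, -0.61, -0.96, -1.24, -0.50 and -1.21. All 6 of these calls ended without PC9-GR3 vehicle library 2 (adjusted p = 0.167, 0.264, 0.158, 0.1, 0.0641 and 0.219). Those of HK1, PFKM and NDRG1 also ended without either PC9-GR2 vehicle library, that of PFKP without library 1 and that of SLC16A3 without library 2 of that pair. Without PC9-GR3 vehicle library 1, 17 members passed in place of 10 (45.9%; all genes 30.6%), and 4 passed without PC9-GR3 vehicle library 2 or either PC9-GR2 vehicle library (10.8%; all genes 19.3% to 26.2%).

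**Figure D4:**
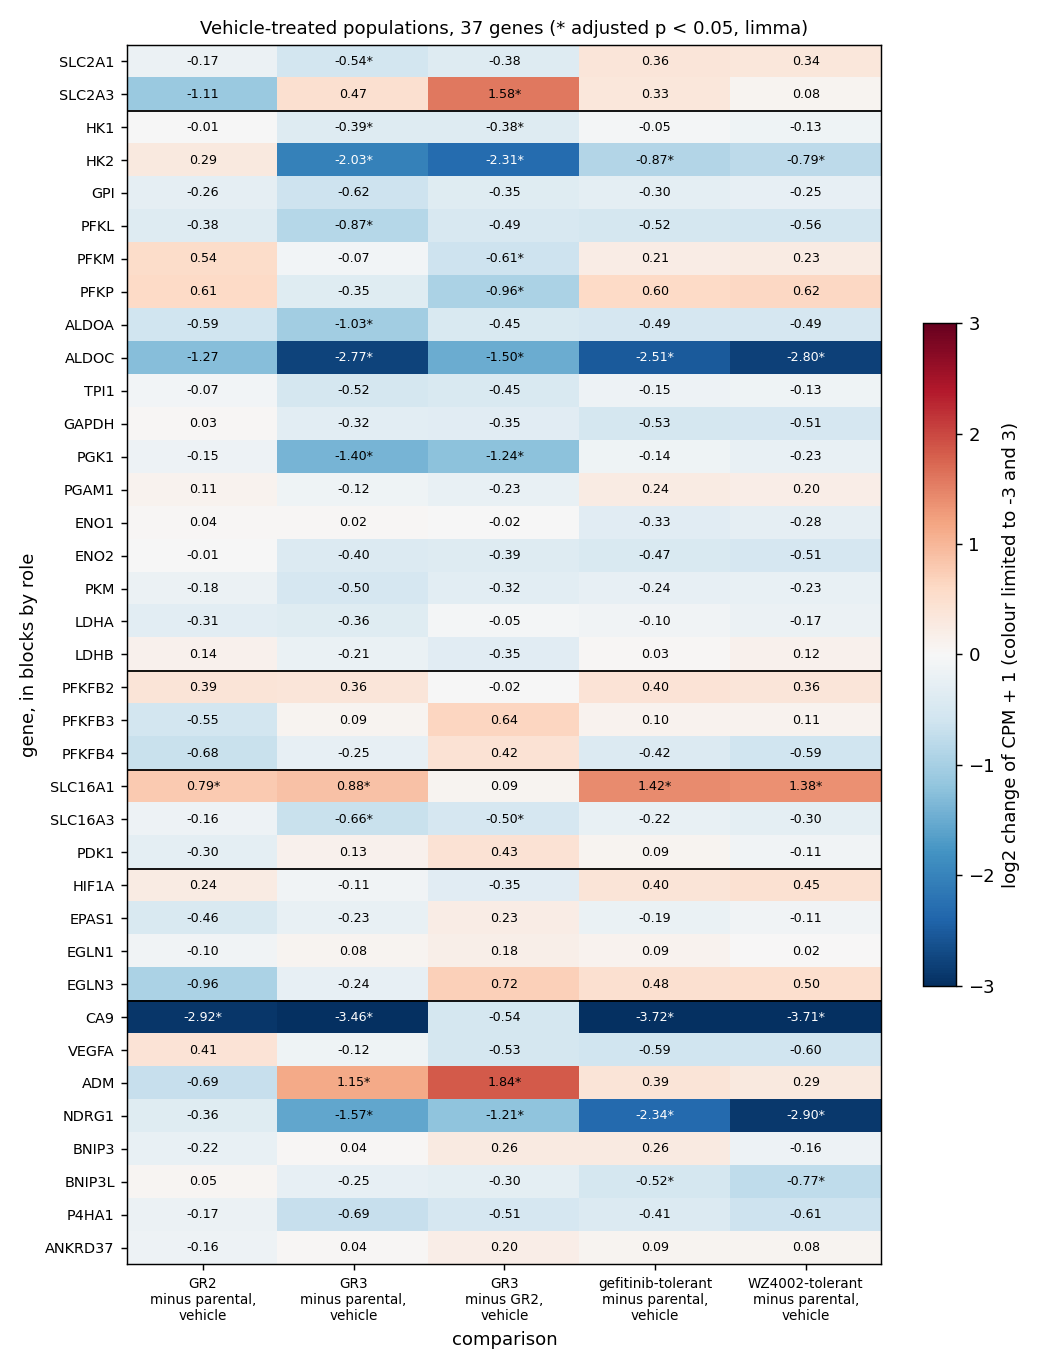
Difference of log2(CPM + 1) between vehicle-treated populations for the 37 genes (rows, in blocks by role) in 5 comparisons (columns); each cell prints the difference from 2 libraries a group, and a star marks an adjusted p under 0.05. CA9 is lower and SLC16A1 higher than in parental cells in all 4 comparisons with them.

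Responses were compared between populations by testing the difference of 2 responses, which involves 8 libraries. A response is called higher where its log2 change lies above the other, so a smaller fall counts as higher. PC9-GR3 and PC9-GR2 differed in 7 of 37 members (18.9%; background 13.6%), all 7 with the higher response in PC9-GR3 (background 6.78%). They were SLC16A1 (2.32 ± 0.29, adjusted p = 0.000117), NDRG1 (1.75 ± 0.51, adjusted p = 0.0322), ENO2 (1.65 ± 0.40, adjusted p = 0.0122), ENO1 (1.19 ± 0.32, adjusted p = 0.021), PFKP (1.14 ± 0.36, adjusted p = 0.0464), PFKM (1.01 ± 0.26, adjusted p = 0.0168) and PGAM1 (0.96 ± 0.30, adjusted p = 0.0434). The median difference of the 17 enzymes was 0.71. The SLC16A1 difference held in all 8 fits without 1 library, with a range of 2.07 to 2.57.

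The other 6 differences ended in 3 to 7 of 8 such fits. ENO1 ended without PC9-GR2 WZ4002 library 2 (adjusted p = 0.076), without PC9-GR3 vehicle library 2 (adjusted p = 0.0903), without PC9-GR3 WZ4002 library 2 (adjusted p = 0.0597), without PC9-GR2 vehicle library 1 (adjusted p = 0.0645) and without PC9-GR2 vehicle library 2 (adjusted p = 0.0699). ENO2 ended without PC9-GR2 WZ4002 library 2 (adjusted p = 0.055), without PC9-GR3 vehicle library 2 (adjusted p = 0.0565) and without PC9-GR2 vehicle library 2 (adjusted p = 0.0506), and PFKM without PC9-GR2 WZ4002 library 1 (adjusted p = 0.0568), without PC9-GR3 vehicle library 2 (adjusted p = 0.0626) and without PC9-GR2 vehicle library 1 (adjusted p = 0.0669). PFKP held only without PC9-GR2 WZ4002 library 1 and without PC9-GR3 vehicle library 1 (adjusted p = 0.0946 to 0.196 in the other 6 fits). PGAM1 held only without PC9-GR3 vehicle library 1 (adjusted p = 0.0597 to 0.181 in the other 7 fits). NDRG1 held only without PC9-GR2 WZ4002 library 1 and without PC9-GR3 vehicle library 1 (adjusted p = 0.058 to 0.145 in the other 6 fits). Without PC9-GR3 vehicle library 1, 15 members passed in place of 7 (40.5%; all genes 18.7%) and 13 enzymes were higher (median 1.24). Without PC9-GR3 vehicle library 2, 1 member (2.7%; all genes 9.69%) and 0 enzymes passed (median 0.32). The size of the enzyme difference between the derivatives thus rested on the PC9-GR3 vehicle pair. Leaving out PC9-GR3 WZ4002 library 1 gave 4 members and library 2 gave 3 (10.8% and 8.11%; all genes 10.4% and 9.29%), and leaving out PC9-GR2 WZ4002 library 2 or either PC9-GR2 vehicle library gave 2 (5.41%; all genes 6.49% to 7.43%).

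Against parental cells the WZ4002 response of PC9-GR3 differed in 3 members (8.11%; background 1.29%): SLC16A1 (1.64 ± 0.29, adjusted p = 0.0118), SLC16A3 (0.88 ± 0.19, adjusted p = 0.0297) and CA9 (2.73 ± 0.61, adjusted p = 0.0395). The SLC16A1 call ended without parental vehicle library 1 (adjusted p = 0.0814) and without PC9-GR3 WZ4002 library 2 (adjusted p = 0.0542), and that of SLC16A3 ended without parental vehicle library 1 (adjusted p = 0.162), without PC9-GR3 vehicle library 2 (adjusted p = 0.103), without PC9-GR3 WZ4002 library 2 (adjusted p = 0.117) and without parental WZ4002 library 2 (adjusted p = 0.0926). The CA9 call held only without PC9-GR3 vehicle library 1 and without parental WZ4002 library 1 and without parental vehicle library 2 (adjusted p = 0.0845 to 0.177 in the other 5 fits). Without PC9-GR3 vehicle library 1, 15 members passed (40.5%; all genes 6.84%), and 6 without parental WZ4002 library 1 (16.2%; all genes 4.54%). Without parental vehicle library 1 or PC9-GR3 WZ4002 library 2, 0 passed (all genes 0.297% and 0.51%), and 1 or 2 passed without PC9-GR3 vehicle library 2, parental WZ4002 library 2 or PC9-GR3 WZ4002 library 1 (all genes 0.788% to 1.07%). PC9-GR2 differed from parental cells in 1 member, CA9 (2.10 ± 0.61, adjusted p = 0.0487; 2.7%, background 6.79%), which held only without parental WZ4002 library 1 and without parental vehicle library 2 (adjusted p = 0.111 to 0.194 in the other 6 fits). Without any 1 of the 4 PC9-GR2 libraries or parental WZ4002 library 2, 0 passed (all genes 2.12% to 5.52%), while 2 passed without parental vehicle library 1 (5.41%; all genes 3.9%) and 3 without parental WZ4002 library 1 (8.11%; all genes 8.18%). CA9 stood at 0.25 to 1.81 CPM in the vehicle libraries of the derivatives, where little room is left to fall on the log2(CPM + 1) scale.

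The tolerant populations differed from parental cells in their response of HK2 and SLC16A1. For gefitinib, HK2 differed by -1.64 ± 0.36, adjusted p = 0.0252 and SLC16A1 by 1.65 ± 0.29, adjusted p = 0.00775, which makes 2 of 37 members (5.41%; background 2%). For WZ4002, 4 passed (10.8%; background 4.49%): HK2 (-1.86 ± 0.36, adjusted p = 0.00912), SLC16A1 (1.46 ± 0.29, adjusted p = 0.01), PFKP (1.63 ± 0.36, adjusted p = 0.0184) and CA9 (2.65 ± 0.61, adjusted p = 0.0219). HK2 fell in both tolerant populations, while its parental changes of 0.60 and 0.54 did not pass. The WZ4002 difference of HK2 held in all 8 fits (-2.26 to -1.46). The gefitinib difference of HK2 held only without gefitinib-tolerant vehicle library 2 and without parental gefitinib library 2 (adjusted p = 0.0575 to 0.117 in the other 6 fits).

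The SLC16A1 difference in gefitinib-tolerant cells ended without parental vehicle library 1 (adjusted p = 0.0504), and that in WZ4002-tolerant cells without parental vehicle library 1 (adjusted p = 0.0565) and without WZ4002-tolerant WZ4002 library 2 (adjusted p = 0.0631). PFKP went from 122 and 122 CPM to 88.5 and 102 CPM in WZ4002-tolerant cells, against 97.9 and 63.6 CPM and 21.8 and 16.7 CPM in parental cells. The PFKP difference ended without parental vehicle library 1 (adjusted p = 0.105), without WZ4002-tolerant vehicle library 1 (adjusted p = 0.0644), without parental WZ4002 library 2 (adjusted p = 0.0635) and without WZ4002-tolerant WZ4002 library 2 (adjusted p = 0.0898). The CA9 difference ended without parental vehicle library 1 (adjusted p = 0.108), without WZ4002-tolerant vehicle library 2 (adjusted p = 0.0774), without parental WZ4002 library 2 (adjusted p = 0.0808) and without WZ4002-tolerant WZ4002 library 2 (adjusted p = 0.0848). For gefitinib 0 members passed without parental vehicle library 1 (all genes 0.581%), and 1 passed without gefitinib-tolerant vehicle library 1, parental gefitinib library 1 or either gefitinib-tolerant gefitinib library (2.7%; all genes 0.601% to 1.64%). For WZ4002, 8 passed without parental WZ4002 library 1 (21.6%; all genes 6.95%), 2 without parental WZ4002 library 2 (5.41%; all genes 3.23%), and 1 without parental vehicle library 1 or WZ4002-tolerant WZ4002 library 2 (2.7%; all genes 1.43% and 1.12%).

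**Figure D5:**
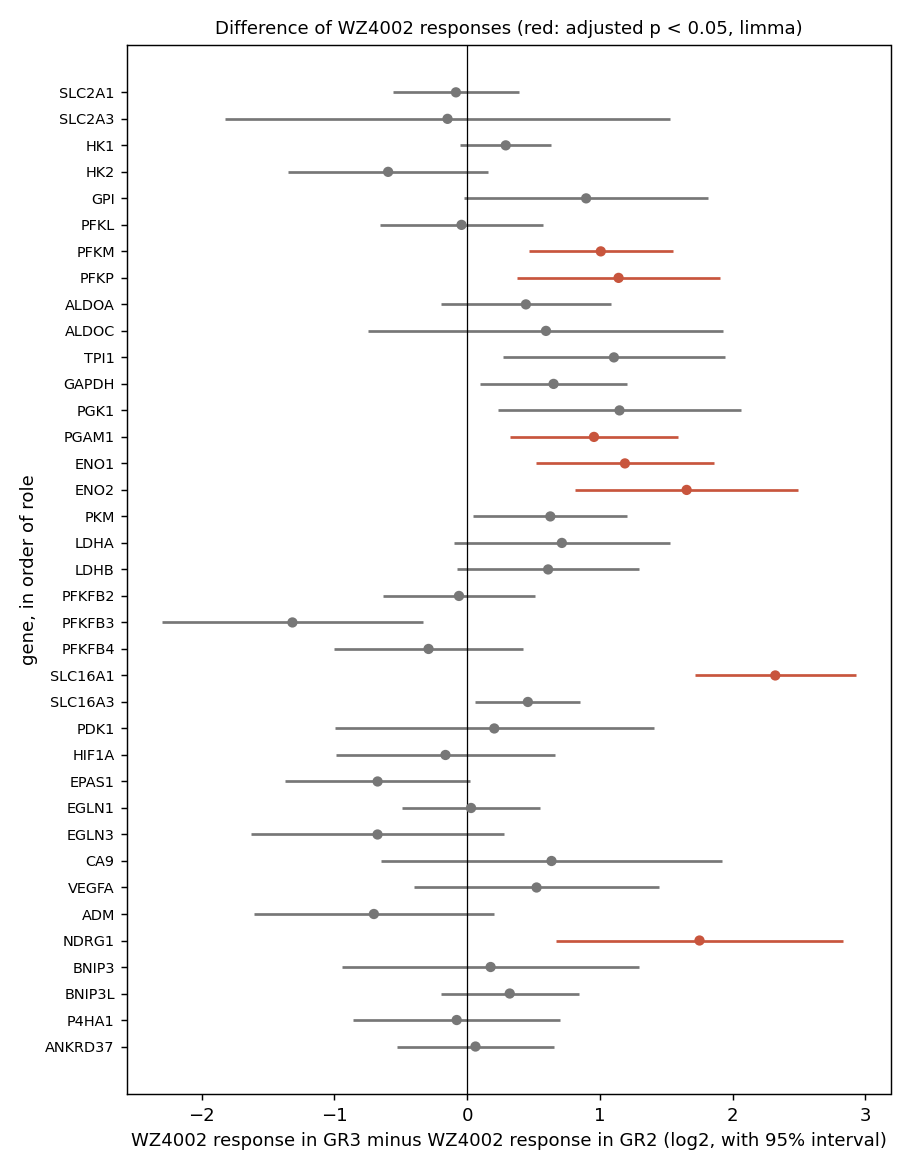
Difference of the WZ4002 response between PC9-GR3 and PC9-GR2 for the 37 genes, in log2(CPM + 1), with its 95% interval. Points right of 0 had the less negative or more positive change in PC9-GR3, and red points passed. SLC16A1 is the point farthest right, at 2.32, and all 7 red points are right of 0.

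Gefitinib is an anilinoquinazoline and WZ4002 an anilinopyrimidine with a reactive acrylamide. They were compared in parental cells, for which the labels give the same dose and time. With limma 0 of 37 members passed (background 0%), and 525 of all genes had an unadjusted p under 0.05, 1 of them a member. That member, SLC16A3, had a WZ4002 level less its gefitinib level of -0.40 (95% interval -0.68 to -0.12, unadjusted p = 0.00743, adjusted p = 0.999). The difference was 0.41 for SLC16A1 (95% interval -0.02 to 0.84), 0.74 for SLC2A3 (-0.44 to 1.93), -0.64 for CA9 (-1.55 to 0.27) and -0.06 for HK1 (-0.30 to 0.18). The intervals of SLC2A3 and CA9 take in changes of more than 2-fold, so the test does not show that the inhibitors act alike. Without parental WZ4002 library 1, 1 member passed, HIF1A (2.7%; all genes 2.22%). With limma-voom on reads recovered from the CPM steps, 0 genes passed.

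Beyond the 37, further genes of glucose metabolism passed in both directions. The backgrounds for the counts of these lists, higher and lower, are 23.5% and 21.8% of all genes under gefitinib and 25.1% and 22.3% under WZ4002 in parental cells, 27.4% and 28.3% in PC9-GR2, 12.1% and 9.87% in PC9-GR3, 15.2% and 13.6% in gefitinib-tolerant and 17% and 15.6% in WZ4002-tolerant cells. Of 18 other genes of glycolysis and pyruvate use, 6 were higher and 5 lower under gefitinib in parental cells, 5 and 5 under WZ4002, 7 and 5 in PC9-GR2, 4 and 2 in PC9-GR3, 3 and 2 in gefitinib-tolerant and 5 and 2 in WZ4002-tolerant cells. Under WZ4002 in parental cells these are 27.8% in each direction, near the background. HKDC1, a hexokinase-like enzyme, went from 413 and 381 CPM to 37.6 and 41.4 CPM in PC9-GR2 cells (-3.30 ± 0.33, adjusted p = 8.71e-07). BPGM, which diverts a glycolytic intermediate to 2,3-bisphosphoglycerate, was higher in all 6 responses, from 0.76 ± 0.28 in PC9-GR2 to 2.26 ± 0.28 in PC9-GR3 cells. The BPGM call in PC9-GR2 ended without any 1 of the 4 libraries (adjusted p = 0.0854 to 0.118), and that in parental cells under gefitinib without parental gefitinib library 1 (adjusted p = 0.066).

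PDK4, a relative of PDK1 with the same target, was higher in 5 of the 6 responses in which PDK1 was lower. It went from 4.02 and 3.79 CPM to 12.3 and 7.59 CPM under gefitinib in parental cells (1.12 ± 0.24, adjusted p = 0.00143), and the changes were 1.22 under WZ4002 there, 1.48 in PC9-GR2, 1.49 in gefitinib-tolerant and 1.47 in WZ4002-tolerant cells. In PC9-GR3 cells PDK4 stood at 3.66 and 2.54 CPM in vehicle and 3.88 and 2.27 CPM under WZ4002 (-0.02 ± 0.24, adjusted p = 0.958). The difference between the responses of PC9-GR3 and PC9-GR2 was -1.50 ± 0.34, adjusted p = 0.00821, and it held in all 8 fits without 1 library.

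Of 12 genes of the pentose phosphate pathway and glycogen, 2 were higher and 4 lower in parental cells under gefitinib, 2 and 5 under WZ4002, 1 and 3 in PC9-GR2, 4 and 2 in PC9-GR3, 0 and 5 in gefitinib-tolerant and 1 and 3 in WZ4002-tolerant cells. The lower shares ran from 16.7% in PC9-GR3 to 41.7% under WZ4002 in parental and in gefitinib-tolerant cells. PYGB, brain-type glycogen phosphorylase, was lower in all 6, with changes of -0.92, -1.12, -1.53, -0.67, -0.62 and -0.72, and these calls held in all fits. Of 4 glucose-sensing genes tested, MLXIP, a glucose-responsive transcription factor, was higher in parental cells under gefitinib (0.97 ± 0.14, adjusted p = 5.87e-05) and WZ4002 (0.88 ± 0.14, adjusted p = 0.000122) and in PC9-GR2 cells (0.92 ± 0.14, adjusted p = 4.00e-05).

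Of 11 other regulators of HIF, 4 were higher and 2 lower in parental cells under gefitinib, 4 and 1 under WZ4002, 4 and 3 in PC9-GR2, 3 and 1 in PC9-GR3, 2 and 2 in gefitinib-tolerant and 2 and 0 in WZ4002-tolerant cells, with 36.4% higher in each of the first 3 responses. CITED2, which competes with HIF-1 for its coactivator, was higher in all 6 responses. It went from 72 and 68.8 CPM to 311 and 256 CPM under gefitinib (1.99 ± 0.21, adjusted p = 6.20e-06) and to 257 and 307 CPM under WZ4002 (1.98 ± 0.21, adjusted p = 5.65e-06) in parental cells. In PC9-GR2 cells it went from 40.4 and 43.7 CPM to 239.7 and 234 CPM (2.47 ± 0.21, adjusted p = 1.87e-07), and in PC9-GR3 cells from 42.8 and 48.9 CPM to 159 and 200.3 CPM (1.94 ± 0.21, adjusted p = 2.35e-05). Every drug library was above every vehicle library of its population. The changes in the tolerant cells were 1.65 and 2.03, and all 6 calls held without any 1 library.

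Of 21 other hypoxia targets tested, 4 were higher and 6 lower in parental cells under gefitinib, 6 and 7 under WZ4002, 4 and 3 in PC9-GR2, 0 and 2 in PC9-GR3, 2 and 2 in gefitinib-tolerant and 2 and 1 in WZ4002-tolerant cells. Under gefitinib in parental cells these are 19% and 28.6%, near the background. STC2, a secreted glycoprotein, changed by -2.75 ± 0.34 under gefitinib in parental, -3.59 ± 0.34 in PC9-GR2 and -2.84 ± 0.34 in PC9-GR3 cells, and these calls held in all fits. DDIT4, a stress gene that restrains mTOR, was lower than in parental vehicle cells in gefitinib-tolerant (-2.98 ± 0.37, adjusted p = 6.99e-05) and WZ4002-tolerant vehicle cells (-3.13 ± 0.37, adjusted p = 5.24e-05). These calls of DDIT4 held without any 1 library.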

How the data were processed

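Polyadenylated RNA of 22 libraries was prepared with a directional kit, per the labels' protocols. Per the submitters' processing notes, STAR, HTSeq and hg19 were used; versions and the strand setting are not given in the sources used here. The deposited values are CPM, scaled by the authors to library totals and rounded. They fell on whole multiples of 1 read (at least 99.994% of values within 0.0055 CPM), which gave 23.6 to 50.4 M reads per library, 14.4 to 32.4 M of them in the listed genes. The table held 0 values of 0, so genes without reads in a library are either not listed or listed at a floor value, which cannot be told here. Counts of genes that share sequence with copies or overlap others are uncertain.

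The test was limma 3.58.1 in R 4.3.3 on log2(CPM + 1), with variance trend, 11 group means and 11 residual degrees of freedom, over the 15485 genes that reached 1 CPM in 2 or more libraries (1680 did not), in 17 contrasts. P-values were adjusted by Benjamini-Hochberg within each contrast over all tested genes, with a threshold of 0.05. No count model was fitted as the main test, since the values are not counts. The fit was tested on simulated data. The libraries of each pair differed by more than sampling noise and were counted as 2 samples.

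The 37 members, the roles and the lists of other genes were chosen with earlier results of these data known. All 37 members were accounted for, with full statistics for up to 3 of each role with the lowest p in a contrast and for those whose direction differs between populations, and up to 3 genes of each further list. A gene of the list of other hypoxia targets is counted with its list and otherwise not reported here. Promoters came from RefSeq tables in GRCh38.p14, 250 bases before each start, matched by symbol. As alternatives the fit was repeated with median-of-ratios scaling, with a pseudocount of 0.1, with no filter, with a replicate block, with a term for 3 runs of columns, with only the libraries of a contrast, with limma-voom on recovered reads, and without each library in turn.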

Additional observations from a re-analysis of the deposited data

Results flagged for a closer look

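In 17 cases the response of a member differed between populations by the test of the difference itself, in log2(CPM + 1). Of the 37 members, 18.9% passed for PC9-GR3 against PC9-GR2 (background 13.6%). Against parental cells it was 2.7% for PC9-GR2 (background 6.79%), 8.11% for PC9-GR3 (1.29%), 5.41% for gefitinib-tolerant (2%) and 10.8% for WZ4002-tolerant cells (4.49%). Only the SLC16A1 difference between the derivatives and the HK2 difference for WZ4002 held in all fits without 1 library. SLC16A1 fell in parental and PC9-GR2 cells and did not pass in the other populations. Its change lay above that of parental cells by 1.64 in PC9-GR3, 1.65 in gefitinib-tolerant and 1.46 in WZ4002-tolerant cells. It lay above that of PC9-GR2 by 2.32 in PC9-GR3. For HK2 it was lower than in parental cells, by -1.64 for gefitinib in gefitinib-tolerant and by -1.86 for WZ4002 in WZ4002-tolerant cells. For CA9 the difference from parental cells was 2.10 in PC9-GR2, 2.73 in PC9-GR3 and 2.65 in WZ4002-tolerant cells, and CA9 was below 2 CPM in the vehicle libraries of these populations.

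The WZ4002 change of PC9-GR3 also lay above that of PC9-GR2 for NDRG1 (1.75), ENO2 (1.65), ENO1 (1.19), PFKP (1.14), PFKM (1.01) and PGAM1 (0.96). Such a difference can be a smaller fall, as for ENO2, which was lower under drug in both derivatives. SLC16A3 differed by 0.88 between PC9-GR3 and parental cells. PFKP differed by 1.63 between WZ4002-tolerant and parental cells. All differences from parental cells for a drug use the same parental libraries, and those of PC9-GR3 use a vehicle pair whose libraries were far apart.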

How the results depend on the processing

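Where a setting moved the count of members that passed by more than 1.5 times, the counts were as follows. In brackets is the share of all genes that passed under the same setting. With the libraries of a contrast alone, 2 in place of 7 passed in the PC9-GR3 response (4.48%), 9 in place of 2 in PC9-GR2 against parental vehicle (29.6%), 4 in place of 12 in PC9-GR3 against parental vehicle (6.75%), 6 in place of 10 in PC9-GR3 against PC9-GR2 vehicle (23.7%), 2 in place of 4 in the WZ4002 response of WZ4002-tolerant against parental cells (1.41%), and 0 in the response differences of PC9-GR2 and PC9-GR3 from parental cells (1 and 3; 5.95% and 0.0581%). With a term for the 3 runs of columns, 21 in place of 13 passed in gefitinib-tolerant (36%) and 10 in place of 16 in WZ4002-tolerant cells under drug (26.9%), 11 in place of 6 in WZ4002-tolerant against parental vehicle (24.6%), 4 in place of 2 in the gefitinib-tolerant difference (5.64%) and 0 in the PC9-GR2 difference (2.18%). Without the filter on low values, 0 in place of 1 passed in the PC9-GR2 difference (6.02%).

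With the replicate number as a block, 4 in place of 2 passed in PC9-GR2 against parental vehicle (18.6%), 2 in place of 1 in the PC9-GR2 difference (7.77%) and 5 in place of 3 in the PC9-GR3 difference from parental cells (2.22%). Libraries of the same number had correlated deviations above 0.1 in 20 of the 55 pairs of groups (-0.46 to 0.63, median 0.05), not in all, and the labels name no shared batch, so the numbers were not taken to pair the libraries. In 8 of the 11 groups library 1 lay in the first run of columns and library 2 in the second, so number and run largely coincide. Both PC9-GR2 vehicle libraries lay in run 3, apart from the PC9-GR2 WZ4002 libraries and from the parental and PC9-GR3 vehicle pairs. Run therefore coincides with the contrast in the PC9-GR2 response and in PC9-GR2 vehicle against parental or PC9-GR3 vehicle. The same vehicle pair enters the response differences of PC9-GR2 from parental cells and of PC9-GR3 from PC9-GR2. The other counts stayed within 1.5 times of their value under the pseudocount of 0.1, median-of-ratios scaling and limma-voom, and 0 of the called changes of single members reversed in sign under the alternatives run. Medians of the lists did turn in sign. Without parental vehicle library 1 the hypoxia median of parental gefitinib went from -0.45 to 0.01 and that of PC9-GR2 against parental vehicle from -0.19 to 0.16. The WZ4002 medians of PC9-GR3 without its vehicle library 1 went from -0.22 to 0.13 for the enzymes and from -0.10 to 0.20 for the hypoxia targets, and without its library 2 the enzyme median of PC9-GR3 against parental vehicle went from -0.40 to 0.02. The hypoxia median of WZ4002-tolerant cells (0.03) was -0.14 without vehicle library 2 and -0.07 without WZ4002 library 2. With the term for runs, that of WZ4002 against gefitinib went from -0.20 to 0.06. With that term or without parental vehicle library 1, the PC9-GR2 difference from parental cells went from 0.10 to -0.28 and -0.05 for the enzymes (-0.04 without parental WZ4002 library 2) and from 0.20 to -0.30 and -0.03 for the hypoxia targets, and the enzyme median of PC9-GR2 against parental vehicle (-0.01) was 0.07 and 0.25 (0.0017 without PC9-GR2 vehicle library 1). Counts without ANKRD37, chosen after seeing the data as was the level without CA9 and NDRG1, stayed within 1.5 times.

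Leaving out each library in turn gave 13 to 21 members for gefitinib and 17 to 24 for WZ4002 in parental cells, 19 to 22 in PC9-GR2, 3 to 9 in PC9-GR3, 2 to 12 in gefitinib-tolerant and 2 to 14 in WZ4002-tolerant cells, and 0 to 1 between the inhibitors. Between vehicle groups it gave 1 to 3 for PC9-GR2, 7 to 17 for PC9-GR3, 4 to 5 for gefitinib-tolerant and 4 to 8 for WZ4002-tolerant against parental cells, and 4 to 17 for PC9-GR3 against PC9-GR2. For differences of responses it gave 0 to 3 for PC9-GR2, 0 to 15 for PC9-GR3, 0 to 2 for gefitinib-tolerant and 1 to 8 for WZ4002-tolerant against parental cells, and 1 to 15 for PC9-GR3 against PC9-GR2. Over the same fits the share of all genes that passed ran from 29.2% to 38.1%, 31.3% to 41.4%, 42.6% to 46.9%, 11.2% to 23.8%, 6.3% to 27.3%, 9.05% to 27% and 0% to 2.22% in the drug contrasts in the order given, from 4.97% to 9.07%, 11.8% to 20.5%, 7.77% to 13.5%, 8.4% to 10.8% and 19.3% to 30.6% between vehicle groups, and from 2.12% to 8.18%, 0.297% to 6.84%, 0.581% to 1.64%, 1.12% to 6.95% and 6.49% to 18.7% for the differences. The causes were not tested. A quasi-likelihood count test on recovered reads was listed as an alternative and was not run. With 2 libraries a group, and CA9, ENO2 and ANKRD37 near 1 CPM in some groups, small changes were not detectable.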

Other observations

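GPD1L, a relative of glycerol-3-phosphate dehydrogenase, which draws on a glycolytic intermediate, was higher under drug in parental cells and both derivatives and did not pass in the tolerant ones. It stood at 16.6 and 19.7 CPM in parental vehicle, 54.5 and 48.1 CPM under gefitinib (1.45 ± 0.18, adjusted p = 1.96e-05) and 49 and 59.7 CPM under WZ4002 (1.53 ± 0.18, adjusted p = 1.14e-05). In PC9-GR2 cells it went from 13.5 and 12.3 CPM to 81.5 and 102 CPM (2.73 ± 0.18, adjusted p = 1.62e-08), and in PC9-GR3 cells the change was 1.01 ± 0.18, adjusted p = 0.00104. Gefitinib-tolerant cells held 8.37 and 7.27 CPM in vehicle and 5.45 and 5.83 CPM under gefitinib (-0.41 ± 0.18, adjusted p = 0.0973), and WZ4002-tolerant cells held 8.27 and 6.39 CPM in vehicle and 5.32 and 5.13 CPM under WZ4002 (-0.41 ± 0.18, adjusted p = 0.0886). The responses of the tolerant populations differed from that of parental cells by -1.86 ± 0.25, adjusted p = 0.00165 and -1.94 ± 0.25, adjusted p = 0.000956. All these calls held without any 1 library. GPD1L was chosen for this paragraph after its values were seen.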
